A study of Mus musculus with 17 samples.

Results

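The cytosolic ribosomal protein genes encode the protein part of the ribosome that translates nuclear messages in the cytoplasm. They were taken here as the protein-coding genes whose mouse symbol is Rpl or Rps followed by a digit, or Rpsa, Rplp0, Rplp1 or Rplp2, without the Rps6k kinases. Of the 92 genes that the GENCODE annotation names this way, 91 had an identifier among the 38355 of the count tables, and Rpl24 was not analysed here. The 91 genes comprised 76 standard subunits, 31 of the small and 45 of the large ribosomal subunit. The others were 8 variants named after a standard subunit, 6 copies whose symbols mark them as pseudogenes, and Rps19bp1, a protein that binds Rps19.

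The RNA came from hand-dissected hippocampus of untreated wild-type C57BL/6J mice, and all groups shared strain, genotype and tissue. Mice of 3 months (3M, 5 libraries) and 24 months (24M, 6 libraries) were sequenced with single-end reads of 50 bases, and mice of 3 months (3M, 3 libraries) and 29 months (29M, 3 libraries) with paired-end reads of 100 bases. Each aged group was compared with the 3M libraries of the same read layout, to ask which genes differ in level in the aged hippocampus. The 24M replicates 1 and 4 differed by less than sampling noise and were counted as 1 sample, which left 5 samples in that group. The sources do not say that each library came from a separate animal, so the p-values measure the spread between these samples, which may be partly technical. In whole tissue, fewer cells of a type and less RNA per cell cannot be told apart.

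A ribosome has a small subunit, which reads the message, and a large subunit, which joins amino acids. Most of its proteins are present once in each ribosome, while the stalk proteins Rplp1 and Rplp2 are present in more copies, and the genes are expressed in every cell type of the brain. A further trait of the family bears on how its messages can be counted. Processed messages of these genes have been copied back into the mouse genome many times, so that intron-less pseudogenes with nearly the same letters lie on other chromosomes. A read that lies wholly in such letters aligns to several places, and reads of that kind were not counted.

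The letters show how far this goes. For each gene the coding part of its shortest principal transcript was divided into every stretch of 50 letters, the length of a single-end read. A stretch was called shared where it stood letter for letter in a transcript of another annotated gene. Of the 91 genes, 31 had all of their stretches shared and 5 had none. Over the 76 standard subunits the median share was 90.8%, and the median number of pseudogenes that held at least 1 stretch was 9. Rpl7a, a large-subunit protein, shared stretches with 120 pseudogenes.

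Windows of 50 bases from the coding exons of 5 members are printed to show both ends of this range (GRCm38, gene strand, 5′ to 3′). The Rps23 window, at chr13:90924351-90924400 on the plus strand, stood unchanged in 6 other annotated genes. The Rpl19 window, at chr11:98029429-98029478 on the plus strand, stood unchanged in 8, and the Rps29 window, at chr12:69158711-69158760 on the minus strand, in 1.
Rps23: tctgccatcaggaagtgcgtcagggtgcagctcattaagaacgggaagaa
Rpl19: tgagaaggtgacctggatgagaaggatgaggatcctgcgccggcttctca
Rps29: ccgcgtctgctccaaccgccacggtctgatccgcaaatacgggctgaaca

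The windows of Rpl22 and Rpl8 stood in no other annotated gene. They lie at chr4:152330054-152330103 and chr15:76904898-76904947, both on the plus strand. Each is printed above its nearest ungapped match in another annotated gene, among stretches that share a short unbroken run of letters with it. Capitals mark the letters that differ. The match was a processed pseudogene in both cases, with 3 differing letters for Rpl22 and 14 for Rpl8.
Rpl22: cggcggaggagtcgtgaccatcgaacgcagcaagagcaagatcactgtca
Gm13196: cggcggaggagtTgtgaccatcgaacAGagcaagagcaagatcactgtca
Rpl8: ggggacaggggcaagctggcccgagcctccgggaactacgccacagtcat
Gm14294: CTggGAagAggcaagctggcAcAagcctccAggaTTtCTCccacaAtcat

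The libraries held 9213474 to 28438296 gene counts. The 91 genes took 0.298% to 0.356% of the counts in the single-end libraries and 1.27% to 1.37% in the paired-end libraries. Alignments to more than 1 place, which enter no gene, amounted to 34.5% to 44.3% of the gene counts in single-end libraries and to 14.2% to 18.1% in paired-end libraries. The 8 hippocampal markers, among them Prox1 of the dentate gyrus and Wfs1 of the CA1 field, summed to 962 to 1280 CPM, the unit that scales each count to the total gene counts of its library, and none was at 0. Striatal markers summed to 397 CPM in 3M single-end replicate 4 and to at most 164 CPM in the other samples. Markers of blood summed to 481 CPM in 24M replicate 2 and to at most 156 CPM elsewhere. The 6 microglial markers summed to 306 to 351 CPM at 3M and 377 to 401 CPM at 24M, and to 289 to 311 CPM at 3M and 369 to 399 CPM at 29M. The part of these cell markers in the values below was not tested.

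**Figure D1:**
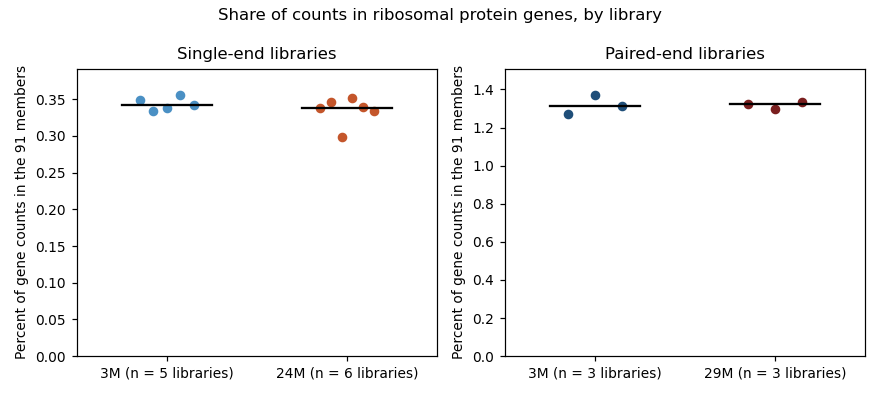
Percent of each library's gene counts that fell in the 91 members, on the vertical axis, for the 5 and 6 single-end and the 3 and 3 paired-end libraries, 1 point per library with a line at the group median. The single-end points sit between 0.298% and 0.356% and the paired-end points between 1.27% and 1.37%, and the age groups overlap within each library type.

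Within a library type the shares of the age groups overlapped. The median share was 0.342% at 3M and 0.338% at 24M in single-end libraries, and 1.31% at 3M and 1.33% at 29M in paired-end libraries. The lowest single-end value, 0.298%, was that of 24M replicate 3, in which 17.3% of the uniquely aligned reads lay outside every gene, against 11.2% to 14.2% in the other single-end libraries. No test was made of the summed level.

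Between library types, in contrast, the levels of single members differed by up to 270-fold at the same age of 3 months. Of the 79 members that passed the filter on low counts in both comparisons, 77 were higher in paired-end than in single-end libraries. The median ratio of paired-end to single-end CPM was 6.76, and it was 0.963 over the 14819 other genes tested in both. The ratio was above 10 for 30 of the 79 members and for 31 of the other genes, which is 0.209% of them. Library type, read length and the mice used cannot be told apart in this comparison, and no test was made.

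Rps29, a zinc-binding protein of the small subunit, had the largest ratio. Its 3M level was 0.581 ± 0.197 CPM (SD, n = 5) in single-end libraries, from 8 to 18 counts, and 157 ± 14.5 CPM (SD, n = 3) in paired-end libraries. Rps27, another small-subunit protein, was at 0.381 ± 0.258 CPM (n = 5) and 99.4 CPM (n = 3). Both fell under the filter in the single-end comparison, and no single-end sample held more than 18 counts of either. Rpl19, a large-subunit protein, was at 1.02 CPM with single-end and 225 CPM with paired-end reads. Rps23, which lies at the site where the codon is read, was at 0.844 and 169 CPM, and Rpsa, which sits on the head of the small subunit, at 1.73 and 340 CPM. All 5 had at least 98.8% of their 50-letter stretches shared.

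At the other end were the members with few shared letters. Rps19bp1, also named an active regulator of the deacetylase Sirt1, was at 15.2 ± 1.33 CPM (SD, n = 5) in single-end and 14.97 ± 0.578 CPM (SD, n = 3) in paired-end 3M libraries, and Rpl7l1, a variant named after Rpl7, at 36.6 and 38.9 CPM. Rps3, which lines the entry of the message into the small subunit, was at 249 and 280 CPM, and Rpl8, at the core of the large subunit, at 222 and 251 CPM. The groups of the 2 library types lay within 1.13-fold of each other for Rps3 and for Rpl8.

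The ratio was larger in members with more shared letters. It ranged from 0.926 to 2.002 over the 14 members with at most 50% of their stretches shared, with a median of 1.297. Over the 39 members with more than 50% but not all shared, the median was 5.01, and over the 26 with all shared it was 37.2. Across the 79 members Spearman's rho between the log2 ratio and the share was 0.870 and Pearson's r was 0.7499. With stretches of 100 letters, over the 78 members long enough to have one, rho was 0.819. The members share libraries and aligner and are not independent replicates, so these are descriptions. Median paired-end levels in the 3 sets were 158, 139 and 146 CPM, and median single-end levels were 97.7, 27.0 and 3.77 CPM.

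**Figure D2:**
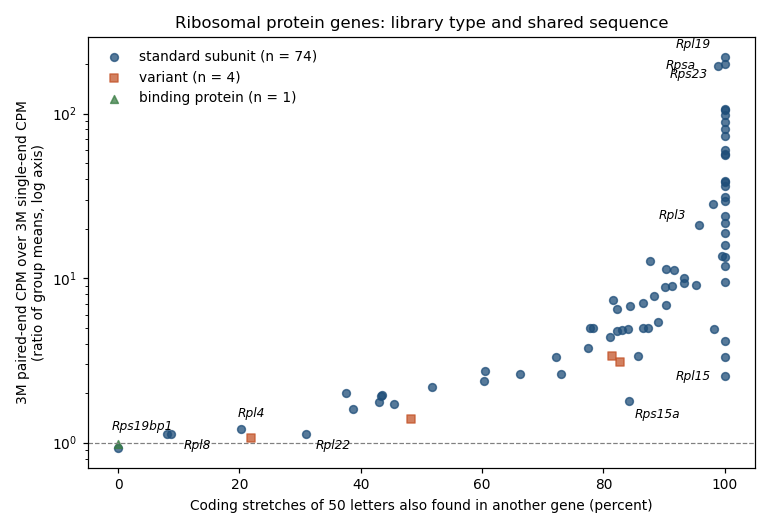
Ratio of the mean 3M paired-end CPM to the mean 3M single-end CPM, on a log axis, against the percent of 50-letter coding stretches also found in another gene, 1 point per member tested in both comparisons (74 standard subunits, 4 variants and Rps19bp1). The ratio stays between 0.926 and 2.002 up to 50% shared and has a median of 37.2 where all stretches are shared, with Rpl15 at 2.56 the lowest of those.

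Some members with all stretches shared had far lower ratios than the median of 37.2. The lowest was that of Rpl15, which lies deep in the large subunit. All of its coding stretches were shared, with 23 pseudogenes, and yet its ratio was 2.56, from 45.4 to 116 CPM. Rpl41, also with all stretches shared, had 50.4 to 56.6 CPM in single-end and 177 to 182 CPM in paired-end 3M samples. Its coding part has 75 of the 437 letters of its transcript and gave only 26 stretches. Rps15a had 84.2% shared and a ratio of 1.79. Only the coding part was searched, and reads from the untranslated ends of a message can also be counted. The ratios at the higher ages followed those at 3 months, with a rank correlation of 0.997 across the 79 members and a median 29M to 24M ratio of 7.55.

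The order of levels therefore depended on the library type. Over the 76 standard subunits the 3M means ran from 0.381 to 467 CPM with single-end reads, and from 57.8 to 569 CPM with paired-end reads. The 5 highest took 39.9% of the subunits' counts with single-end and 17% with paired-end reads. No standard subunit was under 10 CPM in the paired-end 3M group, and 30 were in the single-end 3M group. Per kilobase of transcript, the 4 highest single-end levels at 3M were those of Rpl4 (303 ± 8.82 CPM per kilobase, SD, n = 5), Rplp1 (285 ± 20.6), Rpl8 (261 ± 12.4) and Rps15 (259 ± 14.3). Of the neighbours in this order, Rpl8 and Rps15 differed by less than the SD of either, and Rpl4 and Rplp1 by less than the SD of Rplp1. Rpl4 lines the exit tunnel of the growing protein, and Rplp1 belongs to the stalk that binds elongation factors. The 3 lowest among the members tested were Rps13, Rpsa and Rps23, at 1.29, 1.08 and 0.900 CPM per kilobase. With paired-end reads Rplp1 led with 774 ± 31.6 CPM per kilobase (n = 3), and Rps29, at 402, was the fifth. The lengths are those of the shortest principal transcript in the annotation. That of Rps20 had 3706 bases, which gives it a low level per kilobase.

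No member passed the test in the comparison of 24M with 3M. Of the 91 members, 79 passed the filter on low counts. With edgeR's quasi-likelihood test and Benjamini-Hochberg adjustment over 15683 genes, 0 of the 79 had an adjusted p of at most 0.05 together with a log2 fold change of at least 0.5 in either direction, a call that 1.98% of all genes tested received. At the adjusted p alone 0 of 79 passed, against 5.58% of all genes. At an unadjusted p under 0.05, 2 members were higher and 6 lower, which is 2.53% and 7.59% of them, against 14% and 12.1% of all genes. At the adjusted p alone, DESeq2 passed 1 member (Rps2), edgeR with the 4 groups in 1 fit passed 5 (Rpl15 and Rps20 higher, Rpl17, Rpl36a and Rps2 lower), and with 24M replicates 1 and 4 kept apart 2 (Rpl17 and Rps2). Without 3M single-end replicate 5 it passed 3 (Rpl15, Rpl17 and Rps2) and without 24M replicate 5 it passed 1 (Rps2). The shares of all genes that passed in these alternative fits are not given here, so the counts cannot be weighed against them.

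The fitted changes were small. The median log2 fold change of the 79 members was -0.05, and that of all genes -0.0032. The 95% interval lay within 0.5 of 0 on the log2 scale for 69 of the 79 (87.3%), against 70.3% of all genes, and within 0.25 for 34 of them. The median was -0.04 over the 29 small-subunit proteins tested and -0.06 over the 45 of the large subunit. Among the 14 members with at most 50% of their stretches shared it was -0.06. Without 24M replicate 3, whose share of member counts was lowest, the median of all 79 was -0.02. Without the library with the highest striatal markers it was -0.04, and without that with the highest blood markers -0.06.

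**Figure D3:**
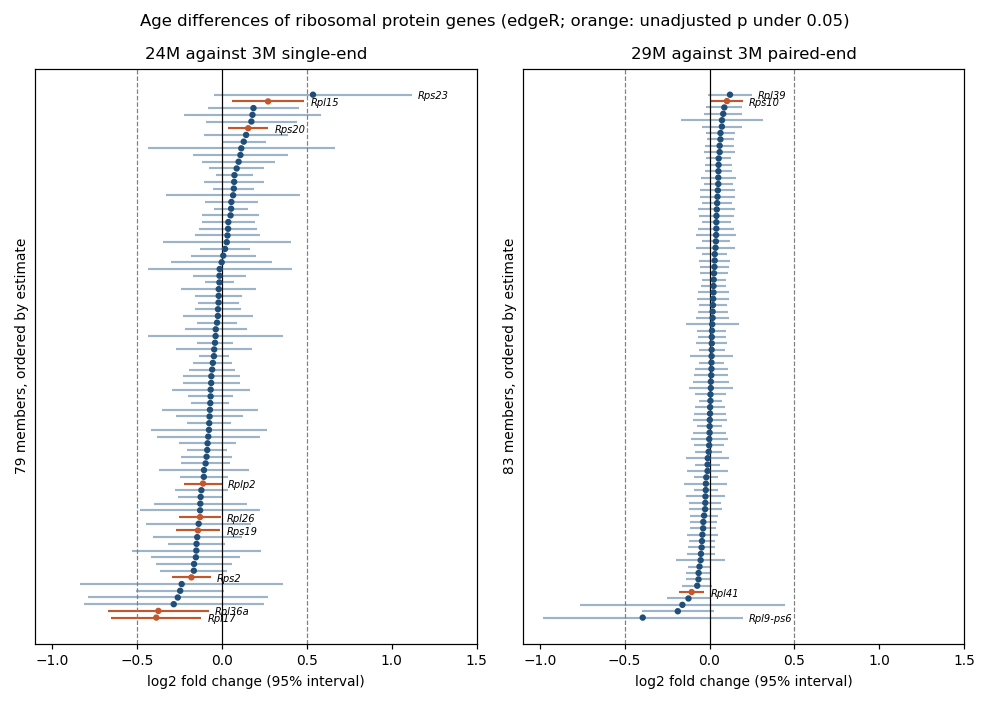
log2 fold change with its 95% interval on the horizontal axis for each member tested, ordered by the estimate, in the 24M (79 members) and the 29M (83 members) comparison with 3M. Orange marks an unadjusted p under 0.05, which 8 and 2 members had, no member passed after adjustment, and dashed lines mark 0.5 on either side of 0.

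Rps2, a protein near the entry of the message into the small subunit, had the smallest p (chr17:24718116-24721929, plus strand). At 3M its 5 samples had 51.7, 51.2, 48.6, 53.0 and 47.6 CPM. At 24M the mean of replicates 1 and 4 was 44.8 CPM, and the other 4 samples had 44.8, 40.9, 47.4 and 43.4 CPM. The highest 24M sample was just under the lowest 3M sample. The log2 fold change was -0.18 (SE 0.0529), with an adjusted p of 0.0605. Over the 21 alternative fits and this one the adjusted p ran from 0.0112 to 0.388. In the paired-end comparison the log2 fold change of Rps2 was -0.02 (SE 0.0334).

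Rpl17, a large-subunit protein at the exit tunnel, had the lowest fitted value (chr18:74998558-75003381, plus strand, exonic counts). At 3M its samples had 2.92, 3.34, 3.27, 3.33 and 2.81 CPM. At 24M they had 2.44 CPM in the mean of replicates 1 and 4, and 2.57, 2.18, 2.31 and 2.50 CPM in the others. The 2 groups did not overlap, but the single-end counts were as low as 23 in a library, and all of its 50-letter stretches were shared, with 50 pseudogenes. The log2 fold change was -0.39 (SE 0.123), with an adjusted p of 0.0745. With paired-end reads Rpl17 was at 178 CPM at 3M and the log2 fold change at 29M was 0.06 (SE 0.0359, adjusted p = 0.389).

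Rpl36a, which lies where the spent transfer RNA leaves the large subunit (chrX:134585654-134588062, plus strand), was at 6.02 ± 0.556 CPM (SD, n = 5) at 3M. Its 24M samples had 3.26 to 5.67 CPM and overlapped the 3M samples, which had 5.12 to 6.52 CPM. The log2 fold change was -0.37 (SE 0.139) and the adjusted p 0.110. All of its 50-letter stretches were shared, and with paired-end reads it had 67.2 to 74.3 CPM at 3M and 67.8 to 73.7 CPM at 29M. In the other direction, Rps20, a small-subunit protein (chr4:3831334-3835665, minus strand), was at 33.5 ± 1.56 CPM at 3M and between 35.1 and 39.8 CPM at 24M, and its fitted log2 fold change was 0.15 (SE 0.0548, adjusted p = 0.0986). Rpl15 (chr14:18267823-18271391, minus strand) was at 34.1 to 54.2 CPM at 3M and 51.9 to 59.5 CPM at 24M. Its log2 fold change was 0.27 (SE 0.0994), with an adjusted p of 0.107. With paired-end reads Rps20 had 110 to 115 CPM at 3M and 114 to 115 CPM at 29M. Rpl15 had 110 to 121 CPM at 3M and 115 to 121 CPM at 29M.

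Rps23 had the highest fitted value, a log2 fold change of 0.54, but rested on 10 to 27 counts per sample. At 3M it had 0.821, 0.522, 0.879, 0.666 and 1.33 CPM. At 24M it had 1.46 CPM in the mean of replicates 1 and 4, and 0.982, 1.27, 0.844 and 1.74 CPM in the other samples. The groups overlapped, the SE was 0.271 and the adjusted p 0.228. With 1770 or more counts per paired-end library, the 29M log2 fold change of the same gene was -0.03 (SE 0.0372).

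**Figure D4:**
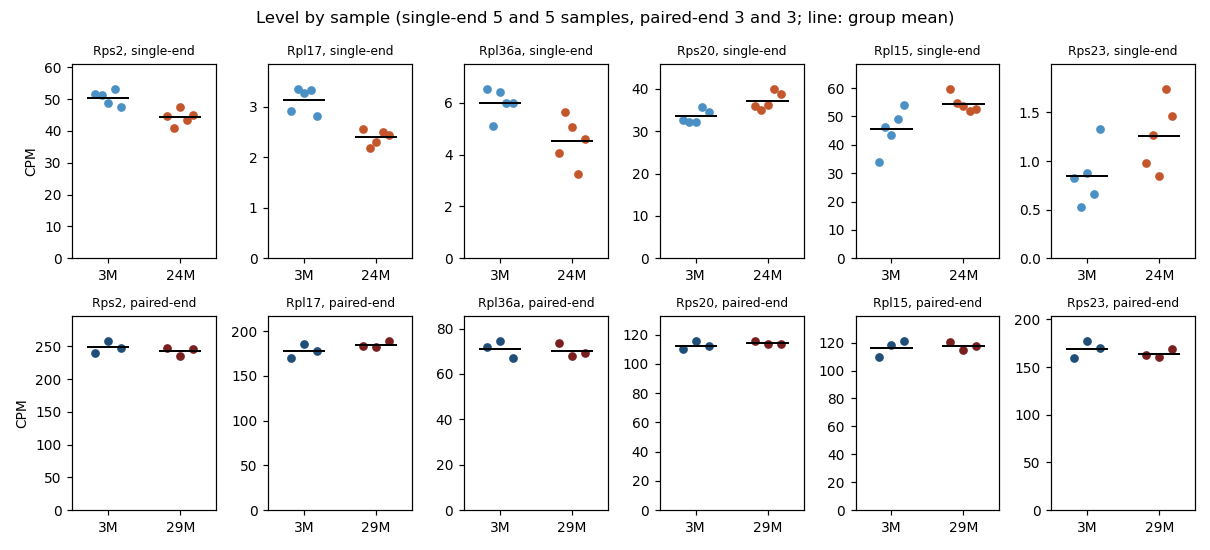
Level in CPM of Rps2, Rpl17, Rpl36a, Rps20, Rpl15 and Rps23 in each sample, single-end above (3M and 24M, 5 samples each) and paired-end below (3M and 29M, 3 samples each), with lines at the group means. The single-end groups of Rps2 and Rpl17 do not overlap, the other single-end groups do, and each axis starts at 0.

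The comparison of 29M with 3M also gave no call among the members, and its estimates were narrower. Of the 91 members 83 were tested, among 15097 genes. None passed with the fold threshold (1.45% of all genes did) and none at the adjusted p alone (2.99% of all genes). At an unadjusted p under 0.05, 1 member was higher and 1 lower, 1.20% each, against 9.86% and 7.48% of all genes. DESeq2 passed 0 members. The 95% interval lay within 0.5 of 0 for 81 of the 83 (97.6%), against 73.7% of all genes. It lay within 0.25 for all 76 standard subunits and for 2 of the other 7 members. The median log2 fold change was 0.01 over the 83 members and -0.0021 over all genes. The median SE was 0.0416, against 0.085 in the 24M comparison. The members had 142400 to 206604 counts in a paired-end library and 30774 to 96031 in a single-end library.

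The member with the smallest p was Rpl41, whose product is a very short peptide of the large subunit. It had 182, 182 and 177 CPM at 3M and 171, 161 and 168 CPM at 29M, so that the groups did not overlap. The log2 fold change was -0.11 (SE 0.0349), with an adjusted p of 0.134. Rps10, at the entry of the message, had 103, 114 and 111 CPM at 3M and 113, 116 and 121 CPM at 29M, and these overlapped. Its log2 fold change was 0.10 and its adjusted p 0.244. The highest fitted value was that of Rpl39, a small protein of the exit tunnel, with 60.8, 70.8 and 69.4 CPM at 3M and 69.6, 71.6 and 75.8 CPM at 29M (log2 fold change 0.12, SE 0.0590, adjusted p = 0.316). Without 3M paired-end replicate 1 the log2 fold change of Rpl39 was 0.07. The lowest was that of Rpl9-ps6, a copy counted as protein-coding, which had 1.66, 1.39 and 2.19 CPM at 3M and 1.11, 1.46 and 1.33 CPM at 29M (log2 fold change -0.39, adjusted p = 0.5002). Without 3M paired-end replicate 3 that of Rpl9-ps6 was -0.22.

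The difference between the age effects was tested in 1 fit over the 4 groups, as the 29M effect minus the 24M effect, with age and library type varying together. Of the 16055 genes tested, 0% passed at the adjusted p, and 0 of the 83 members. DESeq2 also passed 0 members. At an unadjusted p under 0.05 the difference was positive for 5 members and negative for 1, 6.02% and 1.20%, against 4.15% and 6.27% of all genes. The smallest p belonged to Rpl17, with a difference of 0.45 on the log2 scale (SE 0.0950, adjusted p = 0.392). Rplp2, a stalk protein, had a difference of 0.20 (SE 0.0744, adjusted p = 0.394). Rps19, a small-subunit protein whose gene is mutated in Diamond-Blackfan anaemia, had a difference of 0.22 (SE 0.0854, adjusted p = 0.401). Rplp2 had 38.5 to 42.5 CPM in the single-end 3M samples and 34.7 to 38.5 CPM in the 24M samples (log2 fold change -0.11, adjusted p = 0.187 with edgeR), and 102 to 112 and 108 to 114 CPM in the paired-end 3M and 29M samples. Rps19 had 25.5 to 29.9 CPM at 3M and 23.5 to 26.3 CPM at 24M (log2 fold change -0.14, adjusted p = 0.160 with edgeR).

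Of the variants, 4 were high enough to be tested with single-end reads and 5 with paired-end reads, and none passed. Rpl22l1 was at 52.8 ± 3.24 CPM (SD, n = 3) in paired-end 3M libraries, beside 106 CPM of its relative Rpl22. At 29M its 3 samples had 47.3, 48.5 and 48.4 CPM, all below the 3 samples at 3M, which had 49.1, 54.0 and 55.2 CPM. This holds for CPM without the TMM scaling factors of the test. With these factors, 0.978 for 3M replicate 1 and 0.958 for 29M replicate 2, the groups overlapped. The log2 fold change was -0.12 (SE 0.0590, adjusted p = 0.301), against 0.10 (SE 0.101) at 24M. Rpl36al was at 36.8 CPM beside 71.1 CPM of Rpl36a, Rpl7l1 at 38.9 CPM beside 229 CPM of Rpl7, and Rps27l at 9.54 CPM beside 99.4 CPM of Rps27. The log2 fold changes of these 3 variants at 29M were -0.02, -0.05 and 0.07.

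The remaining variants were near or at 0. Rps27rt was at 1.65 CPM in paired-end 3M libraries. Rpl3l, known from muscle, had at most 8 counts in any sample, and Rpl39l, known from testis, at most 2, beside 569 CPM of Rpl3 and 67.0 CPM of Rpl39. Rpl10l, also known from testis, had 0 counts in every sample, beside 193 CPM of Rpl10. Of the 6 copies named as pseudogenes, Rpl9-ps6 was the one that passed the filter, in the paired-end comparison alone. Rps19bp1 was at 14.97 ± 0.578 CPM (n = 3) at 3M and at 11.9, 13.8 and 13.6 CPM at 29M, and the groups did not overlap in CPM without TMM factors. With the TMM factors of the test they overlapped. These were 1.015 for 3M replicate 3, which had 14.3 CPM, and 0.958 for 29M replicate 2, which had 13.8 CPM. Its log2 fold change was -0.19 (SE 0.0981, adjusted p = 0.356) at 29M and -0.15 (SE 0.0787, adjusted p = 0.246) at 24M. Without 29M replicate 1 the 29M value was -0.11.

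Rack1 and Fau encode ribosomal proteins that lie outside the naming rule. Rack1, a scaffold on the small subunit, was at 179 ± 5.39 CPM (SD, n = 5) in single-end and 180 ± 4.47 CPM (n = 3) in paired-end 3M libraries. Fau, whose product is made as a fusion with a ubiquitin-like protein, was at 2.58 and 149 CPM. Neither passed in either comparison, with log2 fold changes of -0.06 for Rack1 and -0.20 for Fau at 24M, and of -0.06 and 0.09 at 29M.

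Many ribosomal protein genes host small nucleolar RNAs (snoRNAs), which guide the modification of ribosomal RNA, in their introns. Of the standard subunits 30 held an annotated snoRNA within their bounds. Their median log2 fold change was -0.03 at 24M and 0.02 at 29M, and that of the standard subunits without one was -0.06 and 0.01. The members lay on 20 chromosomes, with 4 on the X chromosome. In RefSeq promoter windows of 250 bases before to 50 bases after the start (GRCm38.p6), which matched 56 of the 76 standard subunits, the letters CCGGAAG stood on either strand in 37.9% of the 66 windows, against 8.86% of all 32851 windows. The letters CTTTC on the gene strand, between 10 bases before and 20 after the start, stood in 21.2% against 3.74%, and TATAAA on either strand in 9.09% against 13.6% over the whole window. These are matches of letters and show no binding.

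In 5 lists of other genes of protein synthesis, the calls at the adjusted p alone are read beside the 5.58% of all genes at 24M and the 2.99% at 29M. Of the 77 proteins of the mitochondrial ribosome, which translates the messages of the organelle, 76 and 77 were tested and 0 passed in either comparison at the adjusted p. Their median log2 fold change was -0.04 at 24M and -0.06 at 29M. Of the 33 genes of ribosome assembly, 0 passed, with medians of 0.01 and -0.04. Of the 38 genes of initiation, 1 passed at the adjusted p alone, Eif5 at 24M (log2 fold change 0.19, SE 0.0503, adjusted p = 0.0472), and the medians were 0.02 and -0.03. Of the 10 genes of elongation, 1 passed at 24M, Eif5a2, an isoform of a factor that relieves stalled ribosomes, with a log2 fold change of 0.38 (SE 0.0854, adjusted p = 0.0266). The medians of that list were -0.10 and -0.02.

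Of the 18 genes that control ribosomal protein synthesis, among them those of the mTOR pathway, 1 was called with the fold threshold. This was at 24M, where 1.98% of all genes received that call. Mycn, a transcription factor of the Myc family, was at 8.62 ± 0.654 CPM (SD, n = 5) at 3M and 5.29 ± 0.535 CPM (n = 5) at 24M, and the fitted log2 fold change was -0.71 (SE 0.0965, adjusted p = 0.0023). At 29M it was at 4.78 ± 0.649 CPM against 6.44 ± 1.54 CPM at 3M (n = 3 each), with a log2 fold change of -0.39 and an adjusted p of 0.291. The difference between the 2 effects was 0.30 (SE 0.195, adjusted p = 0.596). The medians of the list were -0.05 and -0.01.

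**Figure D5:**
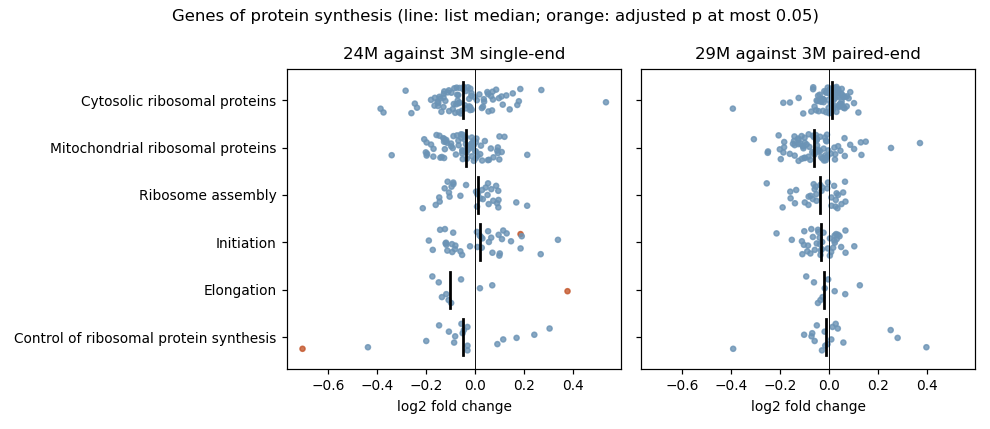
log2 fold change on the horizontal axis of each gene tested in 6 lists of protein synthesis, in the 24M and the 29M comparison with 3M, 1 point per gene with a line at the list median and orange for an adjusted p of at most 0.05. The medians lie between -0.10 and 0.02, and the orange points are Mycn, Eif5 and Eif5a2, all at 24M.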

How the data were processed

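RNA from hippocampus was prepared as poly(A)-selected libraries. The authors aligned reads with STAR 2.3.0 to GRCm38 and counted exonic reads per gene with HTSeq, so the deposited values are raw read counts per gene, without normalization, and reads with several alignments are not counted. Members and gene lists were chosen with earlier results of these data known. Symbols were matched for 36602 of 38355 identifiers. 24M replicates 1 and 4 entered as their rounded mean, since their variance ratio to sampling noise was 0.406 and the next lowest of 136 library pairs was 1.23.

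Genes passing filterByExpr were tested in edgeR 4.0.16 (R 4.3.3) with TMM factors and the quasi-likelihood test, two-sided, with Benjamini-Hochberg adjustment over all genes tested. Lines of the tables that name no gene stayed out of library sizes, and the reads outside every gene are given as no-feature shares, 11.2% to 18.2% of uniquely aligned reads. Levels are CPM of gene counts without TMM factors. Alternatives were DESeq2 1.42.0, other scalings and filters, all groups in 1 fit, a replicate block, offsets for GC content and length, and each sample left out. Simulated data were used to test the fits. Named are the members with the extreme fitted changes, levels and library-type ratios, the variants with their relatives, the smallest p-values of the difference, and called genes of the other lists. Rps2, Rpl36a, Rps20, Rpl15, Rpl41, Rps10, Rps3, Rpl7a and Rps15a were added after their values were seen. Some genes that the rules name are not reported here.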

Additional observations from a re-analysis of the deposited data

Results flagged for a closer look

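For the named members and their share of counts, groups of 5 single-end samples were examined for a sample far from the others. Of 58 such sets of values, 3 had one, where chance gives about 1 in 20. All 3 were low values of 24M replicate 3. Its share of counts in the members was 0.298%, against 0.334% to 0.346% in the other 24M samples. Rpl39 was at 5.82 CPM, against 9.19 to 10.5 CPM, and Rps10 at 11.03 CPM, against 15.95 to 17.1 CPM. The share of uniquely aligned reads outside every gene was 17.3% in this library, and its part in these values was not tested.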

How the results depend on the processing

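The number of members past the adjusted p alone at 24M was 0 as reported, 1 with DESeq2 (Rps2, lower), 5 with the 4 groups in 1 fit (Rpl15 and Rps20 higher, Rpl17, Rpl36a and Rps2 lower) and 2 with 24M replicates 1 and 4 kept apart (Rpl17 and Rps2, lower). With each sample left out it ran from 0 to 3, with 3 without 3M single-end replicate 5 (Rpl15 higher, Rpl17 and Rps2 lower) and 1 without 24M replicate 5 (Rps2). The cause was not tested, and the shares of all genes that passed in these fits are not given here. In the other alternatives run it was 0, as were the calls with the fold threshold and all calls at 29M. At 24M the member median ran from -0.06 to -0.03, and from -0.06 to -0.02 with a sample left out. At 29M it ran from 0.0041 to 0.0212, and from -0.0019 to 0.0339 with a sample left out. Over the members with at most 50% of their stretches shared, an alternative chosen after seeing the data, it was -0.06 and 0.01. No named member was called in the reported fits, so there was no call to reverse. Uncalled values changed sign in 20 of 607, 40 of 528 and 15 of 561 refits at 24M, at 29M and for the difference. At 24M, 6 of the 29 named members changed sign with the GC and length offsets. With the replicate block and these offsets together, 7 of the 29 did. Rps20 at 24M was -0.05 in 1 of the refits. Replicates with the same number did not deviate together (correlations from -0.175 to 0.0965), and with the replicate block the medians were -0.05 and 0.01 and 0 members passed. What can be seen at 24M is more limited for members whose letters are all shared, where their median SE was 0.133. It was 0.058 at 24M for the members with at most 50% shared. At 29M these values were 0.0413 and 0.0392. Library type and the number of samples also differ between the 2 comparisons, and the part of the shared letters was not tested.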

Other observations

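The pseudogenes followed here were those whose symbols are Rpl or Rps, a digit and an ending in -ps. There were 221 with an identifier, mostly too low to test. Pseudogenes under other names, such as Gm13196 and Gm14294, and copies of Rpsa, Rplp0, Rplp1 and Rplp2 are not among them, so the values cover a part of the pseudogenes. At 24M 14 were tested and at 29M 22, and with edgeR none passed at the adjusted p. Of the 22 at 29M, 18 had a negative log2 fold change, with a median of -0.52, against -0.0021 over all genes. The smallest adjusted p with edgeR was 0.0633. Such low genes could pass the filter through their counts in the 3M group alone. At an unadjusted p under 0.05, 9 of the 22 were lower and 0 higher at 29M, against 7.48% and 9.86% of all genes, and 2 of the 14 were higher and 0 lower at 24M, against 14% and 12.1%. The summed level of all 221 was 95.6 to 117 CPM in the paired-end 3M libraries and 76.7 to 88.9 CPM in the 29M libraries, which did not overlap. In single-end samples it was 27.0 to 30.9 CPM at 3M and 25.7 to 30.4 CPM at 24M, which overlapped. At 24M the median log2 fold change was 0.18, with 9 of 14 positive. With 1 sample left out it ran from 0.07 to 0.25, without replicates 1 and 4 it was 0.05, and without a filter on low counts it turned to -0.37 over 179 pseudogenes, of which 1 passed. At 29M it ran from -0.62 to -0.37 with 1 sample left out, the latter without 3M paired-end replicate 1, and without the filter it was -0.32 over 131 pseudogenes, of which 5 passed. Without the filter, 74 of the 131 were negative and 57 positive at 29M. At 24M 118 of the 179 were negative and 61 positive. With the filter kept, 2 passed at 24M with replicates 1 and 4 kept apart, and 1 passed at 29M in each of 3 alternatives, without 3M replicate 2, without 29M replicate 2, and with the replicate block and the GC and length offsets together. For the fits without the filter and these alternatives, the shares of all genes that passed are not given here. The counts of pseudogenes that passed cannot be weighed against them.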
